A study of Mus musculus with 8 samples.

Results

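Potassium channel genes (symbols starting with Kcn) were described in mouse cell lines of small cell lung cancer (SCLC), a lung tumor of neuroendocrine type, in which the transcription factor Nfib was or was not overexpressed. The members were the protein-coding rows of the deposited read count table whose symbol starts with Kcn, which gave 87 of 22691 rows. The Nfib libraries came from cells with introduced mouse Nfib, and the libraries they were set against from cells with an empty vector. There were 4 libraries of each kind in 4 cultures, namely Lmyc1 old, Lmyc3 new, Lmyc3 old and Lmyc5 new, so that Lmyc3 is 1 line with 2 cultures. The cells of both arms came from primary lung tumors of FVB/n; 129/Ola mice with the alleles invCAG-Mycl-Luc and Rb1-/-, per the labels. No source used here gives the meaning of old and new, the age of the mice or the number of independent transfers. P-values therefore measure the spread between these samples only. In tests of Nfib that ignore the culture, this is the spread between the cultures of an arm. In tests of Nfib within cultures, and in tests between cultures, it is what remains between the 2 libraries of a culture after a term for Nfib. That remainder may be technical, and no culture was repeated within an arm.

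Kcn genes encode the pore-forming and auxiliary subunits of channels that pass potassium across the cell membrane. Voltage-gated pores open on depolarisation and repolarise the membrane, calcium-activated pores couple it to intracellular calcium, and two-pore and inward rectifier channels carry current near the resting potential. In neuroendocrine cells, which fire action potentials and release stored peptides, such channels set the resting potential and the shape and rate of firing.

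Libraries held 21815264 to 29934021 counts. A count of 0 allows up to 3 counts, which is 0.1002 CPM (counts-per-million) in the deepest library and 0.138 CPM in the shallowest. Limits of this kind cover counting error only. Nfib itself was at 1281, 2929, 4672 and 3583 CPM in the Nfib libraries, against 71.9, 163, 399 and 487 CPM in the empty vector libraries of Lmyc1 old, Lmyc3 new, Lmyc3 old and Lmyc5 new. The arms did not overlap, and reads of the endogenous and introduced Nfib cannot be told apart. All 10 neuroendocrine markers on a list averaged 1 CPM or more. Of the other markers in the table, 1 of 4 leukocyte, 1 of 5 fibroblast and 1 of 4 endothelial markers did so. The same held for 3 of 5 alveolar and airway markers and 1 of 4 muscle markers. Values or list sums are given at the end. Values below follow the same order of cultures, and fewer cells of a kind cannot be told apart from less RNA per cell.

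Of the 87 members, 47 averaged 1 CPM or more over the 8 libraries and are called expressed here, and 40 were below and are called silent. Over all protein-coding rows 71.2% passed the same threshold. Kcnk12 and Kcna2 lay just inside it at 1.09 CPM each, and Kcnmb2 at 0.984 CPM and Kcnj14 at 0.968 CPM lay just outside. In each library between 41 and 46 members reached 1 CPM, and 28 members did so in all 8 libraries. Summed over members, the Nfib libraries held 1231, 1742, 919.7 and 1672 CPM, against 1233, 1956, 982 and 1766 CPM in the empty vector libraries. The cultures therefore differed more in total channel reads than the arms within a culture did.

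The share of silent genes differed between the classes of channel. Voltage-gated pores were mostly on, with 23 of 29 expressed, as were the calcium-, sodium- or pH-activated pores with 6 of 8. Both shares lay near the 71.2% of all protein-coding rows, and differences between classes were not tested. The two-pore channels were split, with 6 of 12 expressed, and the auxiliary subunits had 7 of 15. Inward rectifiers were mostly silent, with 3 of 14 expressed, and so were the electrically silent subunits, which alter voltage-gated pores and form none alone, with 2 of 9. Silent members included the classical neuronal pores Kcna1 and Kcna6, the strong inward rectifier Kcnj2, and Kcnj8 and Kcnj11, the pores of ATP-sensitive channels. There were 15 members with at most 3 counts in every library (Kcna1, Kcna6, Kcna10, Kcne1l, Kcne3, Kcne4, Kcnj2, Kcnj5, Kcnj8, Kcnj13, Kcnk4, Kcnk7, Kcnn4, Kcns1 and Kcnv2). By contrast, 11 silent members reached 1 CPM in some library, among them the lymphocyte channel Kcna3, which had 3.70 CPM in the Nfib library and 3.43 CPM in the empty vector library of Lmyc5 new and no counts in the other 6.

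**Figure D1:**
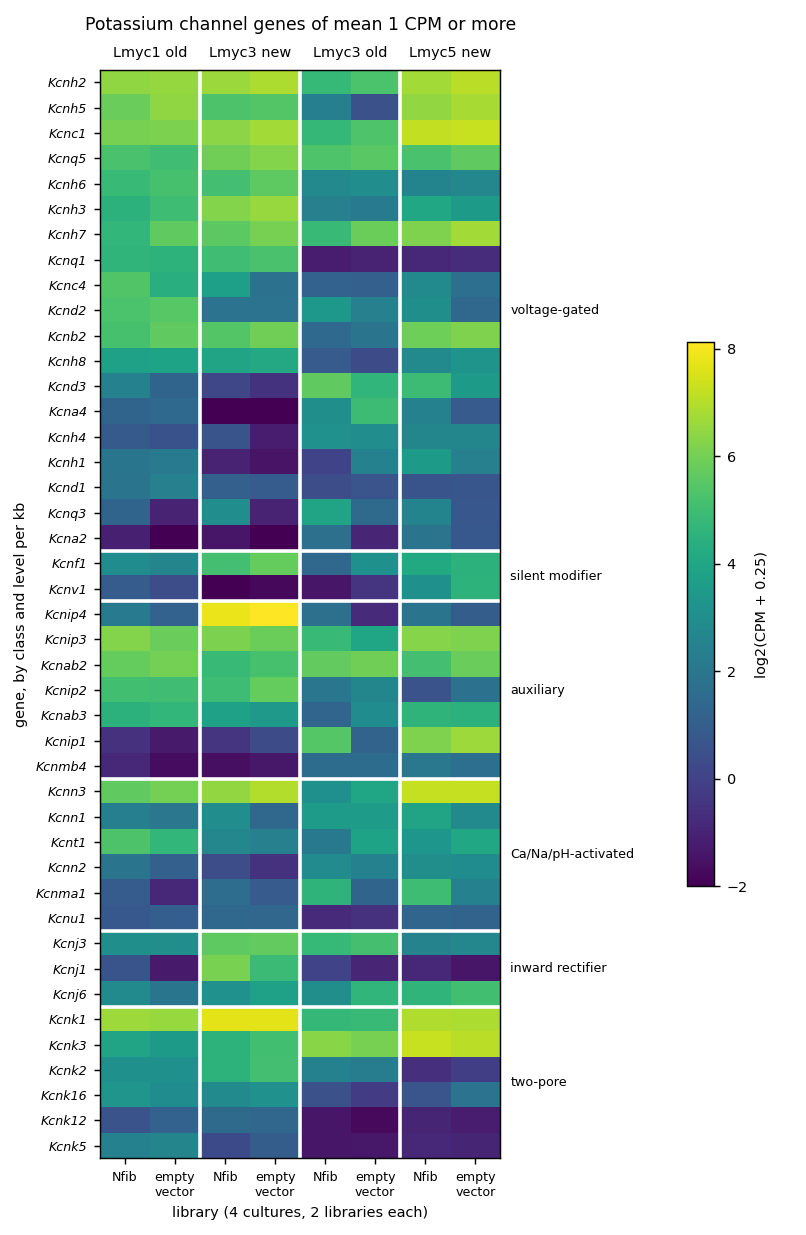
Levels of 43 of the 47 expressed members as log2(CPM + 0.25), color scale at the right, with 1 row per gene, grouped by class, and 1 column per library, 2 for each of the 4 cultures. The 2 columns of a culture look alike for most rows, and Kcnip4 and Kcnj1 stand out in Lmyc3 new.

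Levels were compared between genes as CPM per kb of exon, since longer transcripts collect more reads. The highest was Kcnk1 at 51.0 CPM per kb, the two-pore channel TWIK-1. It was followed by Kcnip4 (18.1), an auxiliary subunit of Kv4 channels, Kcnh2 (18.0), the ERG channel of cardiac repolarisation, Kcnk3 (16.3), the acid-sensitive two-pore channel TASK-1, and Kcnip3 (16.03), another Kv4 auxiliary subunit. Also among the 10 highest were Kcnh5 (13.3), an EAG-type pore, the fast Kv3 pore Kcnc1 (9.20), the Kv1 auxiliary subunit Kcnab2 (8.63) and the small-conductance calcium-activated channel Kcnn3 (7.81), all as mean CPM per kb. In the remaining classes the leading genes were Kcnj3 (4.58 CPM per kb), a G-protein-coupled inward rectifier, and Kcnf1 (3.95 CPM per kb), an electrically silent subunit.

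Kcnk1 had 100, 208, 26.6 and 120.3 CPM in the Nfib libraries, against 95.8, 212, 29.3 and 119 CPM in the empty vector libraries. Its arms overlapped, and the library pairs of a culture lay close together while the cultures ranged widely. There were 11 members at 10 CPM or more in all 8 libraries, among them Kcnk1, Kcnh2, Kcnc1, Kcnk3, Kcnh7, Kcnip3, Kcnab2 and Kcnq5.

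**Figure D2:**
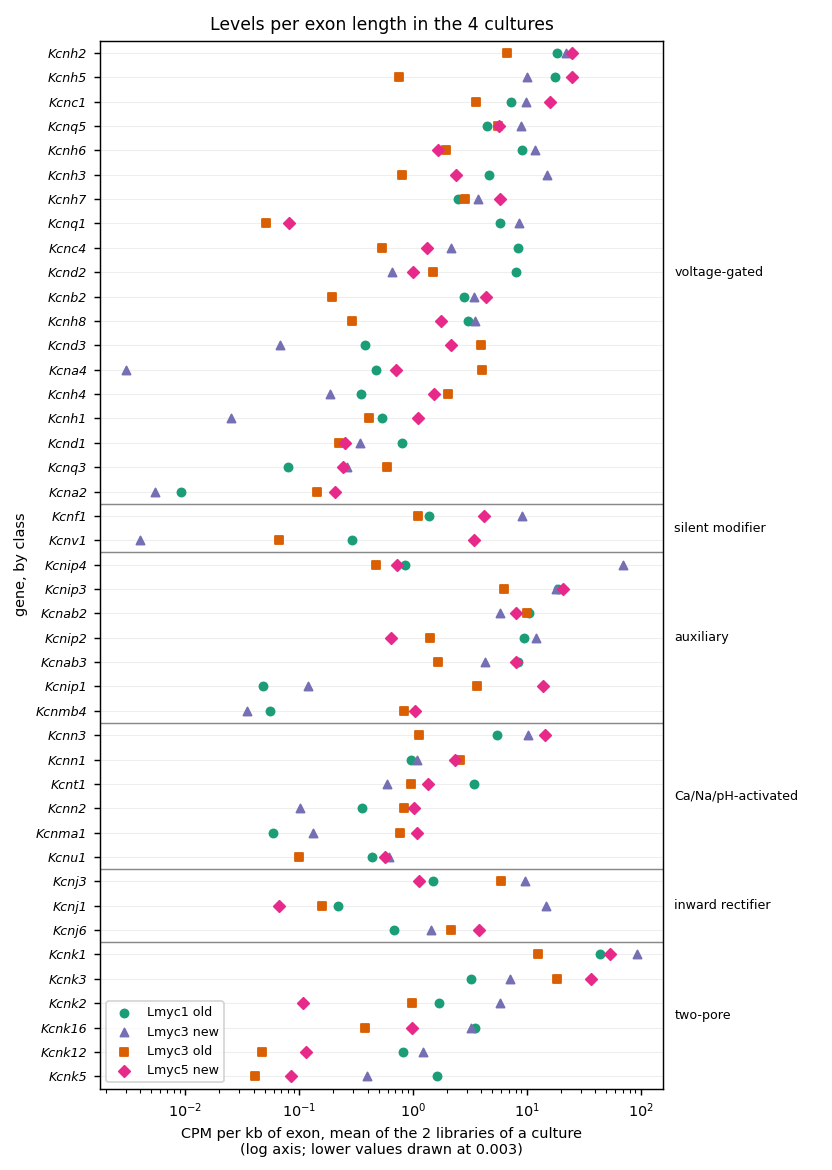
Levels of 43 of the 47 expressed members as CPM per kb of exon (log axis), 1 symbol per culture, each the mean of its Nfib and empty vector library. Kcnk1 lies farthest to the right in all cultures but Lmyc3 old, and the symbols of Kcnq1, Kcnip4 and Kcna4 are spread widely.

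The first question was how the channel set differed between cultures. Most channel genes differed between the 4 cultures, and several ranged from near the counting limit to over 20 CPM. EdgeR's quasi-likelihood F-test over the cultures, with a term for Nfib, had an adjusted p under 0.05 for 57 of the 61 members tested, where the background over all genes was 76.3%. Tested without a low-count filter it called 63 of 87 members, against a background of 48.1%. Of the 47 expressed members 46 were called.

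The levels of the family spread widely between cultures. The median range between the highest and lowest culture mean was 3.48 on the log2 scale over the 47 expressed members, against 0.89 over the 12188 protein-coding rows that average 1 CPM or more. A range of 4-fold or more was found in 37 of 47 members, or 78.7%, where the background was 23.3%. The members were lower than those rows, with a median of their mean CPM of 15.8 against 39.2, and the share of this difference in level in the wider range was not tested. The median of the mean absolute log2 ratio between the 2 libraries of a culture was 0.55 for members, against 0.18 for the same rows. The highest culture mean was in Lmyc1 old for 8 members, in Lmyc3 new for 16, in Lmyc3 old for 6 and in Lmyc5 new for 17.

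Among the voltage-gated pores, several were high in some cultures and near the counting limit in others. Kcnq1, the pore of a slow cardiac and epithelial current, had 24.5, 32.5, 0.184 and 0.312 CPM with Nfib, against 23.2, 37.0, 0.236 and 0.361 CPM with empty vector. It was thus present in Lmyc1 old and Lmyc3 new and near the counting limit in Lmyc3 old and Lmyc5 new, in both arms alike. An antisense gene within it, Kcnq1ot1, shares 3.0% of its exon length and was counted on its own row, at 17.6 to 54.6 CPM in all libraries. Kcnd2, a Kv4 pore of the transient A-type current, was highest in Lmyc1 old, at 38.5, 3.36, 10.5 and 7.91 CPM with Nfib, against 45.0, 3.41, 5.15 and 2.43 CPM with empty vector. Its relative Kcnd3 was highest in Lmyc3 old and Lmyc5 new instead, with values given below. Kcna4, a further A-type pore, had no counts in Lmyc3 new, and 2.13, 7.94 and 5.30 CPM with Nfib, against 2.47, 31.0 and 1.62 CPM with empty vector, in Lmyc1 old, Lmyc3 old and Lmyc5 new.

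The 4 KChIP genes, auxiliary subunits that bind Kv4 pores and tune their gating, differed in the cultures where they were high. Kcnip4 was at 230.5 CPM in the Nfib library and 281 CPM in the empty vector library of Lmyc3 new, and at no more than 4.22 CPM in any other library. Kcnip1 was highest in Lmyc5 new, at 71.6 CPM with Nfib and 100.4 CPM with empty vector, and in Lmyc3 old it was at 43.5 CPM with Nfib and 2.08 CPM with empty vector. Kcnip2 had 33.7 and 31.1 CPM with Nfib, against 32.4 and 53.1 CPM with empty vector, in Lmyc1 old and Lmyc3 new, and at most 6.09 CPM in the other cultures. Kcnip3 was expressed in every library, with 77.0, 70.3, 28.6 and 77.3 CPM with Nfib, against 55.9, 58.4, 15.9 and 71.5 CPM with empty vector. Per kb of exon the leading KChIP was Kcnip4 in Lmyc3 new, at 70.4 CPM per kb, and Kcnip3 in Lmyc1 old, Lmyc3 old and Lmyc5 new, at 18.7, 6.28 and 20.99 CPM per kb, as means of both libraries.

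A culture-specific member was defined as one where both libraries of 1 culture exceeded each of the other 6 at least 4-fold. There were 3 such members of 47, where the background was 3.18% of protein-coding rows. Kcnip4 in Lmyc3 new had a gap of 54.6-fold between the lower of its own libraries and the highest other one. Kcnj1, the inward rectifier ROMK of kidney tubules, had 68.4 CPM with Nfib and 29.7 CPM with empty vector in Lmyc3 new, and at most 1.31 CPM elsewhere, a gap of 22.7-fold. Kcnv1, an electrically silent subunit, had 8.14 CPM with Nfib and 23.2 CPM with empty vector in Lmyc5 new, and at most 1.65 CPM elsewhere, a gap of 4.92-fold. The count depends on the rule, with 7 members at 2-fold, 2 members at 8-fold and 9 members at 4-fold over the empty vector libraries alone. The background of 3.18% belongs to the 4-fold rule over all libraries. No share over all genes was computed for the other rules, so their counts cannot be read as a trait of the channels.

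The same-line comparison set Lmyc3 new against Lmyc3 old. The edgeR test of this contrast called 48 of 61 tested members, 29 higher and 19 lower in Lmyc3 new, where the background was 58.8% of genes (29.8% higher and 29.0% lower). Without a low-count filter it called 53 of 87 members, where the background was 36.1%. A called difference of 4-fold or more was found in 34 members, 20 higher and 14 lower, where the background was 17.0% of genes (9.45% higher and 7.6% lower). Each culture is represented by 2 libraries, of which 1 carries Nfib. The count of members called at any fold was 47 to 49 when a library of Lmyc1 old or Lmyc5 new was left out. It was lower than 48 when any library of Lmyc3 was left out, in fits where 1 Lmyc3 culture has a lone sample. Among the members named below at 4-fold or more, Kcnh1, Kcnc2, Kcnmb1, Kcnip1, Kcns2, Kcnj15, Kcna2 and Kcna7 lost the call in at least 1 fit without a library. Other members called at a smaller fold lost it as well.

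Among those higher in Lmyc3 new were the voltage-gated pores Kcnq1, Kcnh3, Kcnb2, Kcnh5, Kcnh8, Kcnh6 and Kcna7, the two-pore channels Kcnk12, Kcnk5, Kcnk16, Kcnk1 and Kcnk2, the auxiliary subunits Kcnip4, Kcnip2 and Kcnmb1, the calcium-activated channel Kcnn3, Kcnu1, Kcnj1 and Kcnf1. Kcnq1 had 32.5 CPM with Nfib and 37.0 CPM with empty vector in Lmyc3 new, against 0.184 CPM with Nfib and 0.236 CPM with empty vector in Lmyc3 old, a log2 difference of 7.33 (edgeR adjusted p of 3.85e-05). Kcnb2, a delayed rectifier of the Kv2 group, had 43.0 and 61.1 CPM in Lmyc3 new, against 2.52 and 3.45 CPM in Lmyc3 old (Nfib and empty vector library of each), a log2 difference of 4.11 (adjusted p of 3.85e-05). Kcnh3, of the EAG family, had 76.8 and 95.4 CPM in Lmyc3 new, against 5.05 and 4.20 CPM in Lmyc3 old, a log2 difference of 4.21 (adjusted p of 0.000192). For these 3 genes the cultures did not overlap, which adds no support because these genes were picked from members called at 4-fold or more.

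Lower in Lmyc3 new were the voltage-gated pores Kcna4, Kcnd3, Kcnc2, Kcna2, Kcnh1 and Kcnh4, the auxiliary subunits Kcnmb4 and Kcnip1, the electrically silent subunits Kcns3 and Kcns2, the inward rectifiers Kcnj9 and Kcnj15, the two-pore channel Kcnk10 and the calcium-activated channel Kcnn2. For Kcnip1 the Nfib libraries of Lmyc3 differed far more than its empty vector libraries did, with values given below for the interaction test. Kcnd3 had 0.862 and 0.445 CPM in Lmyc3 new, against 50.7 and 25.3 CPM in Lmyc3 old (Nfib and empty vector library of each), a log2 difference of -5.87 (edgeR adjusted p of 5.52e-05). Kcna4, with no counts in Lmyc3 new, was at least 59.8-fold lower there, and Kcnj9, a G-protein-coupled inward rectifier also without counts in Lmyc3 new, was at least 22.1-fold lower. Both bounds set the lower Lmyc3 old library against the higher of the per-library limits of 3 counts in Lmyc3 new.

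The profile of Lmyc3 new lay nearer to Lmyc1 old than to its own line. Across the 47 expressed members, Pearson's r across genes between the culture means of log2 CPM was 0.37 for Lmyc3 new and Lmyc3 old, 0.74 for Lmyc1 old and Lmyc3 new, and 0.75 for Lmyc3 old and Lmyc5 new. The other 3 pairs gave 0.39 to 0.53. Over the 12188 protein-coding rows r was 0.76 for the Lmyc3 cultures, 0.87 for Lmyc1 old and Lmyc3 new, 0.84 for Lmyc3 old and Lmyc5 new, and 0.77 to 0.80 for the others. These values describe genes within the same libraries and were not tested.

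**Figure D3:**
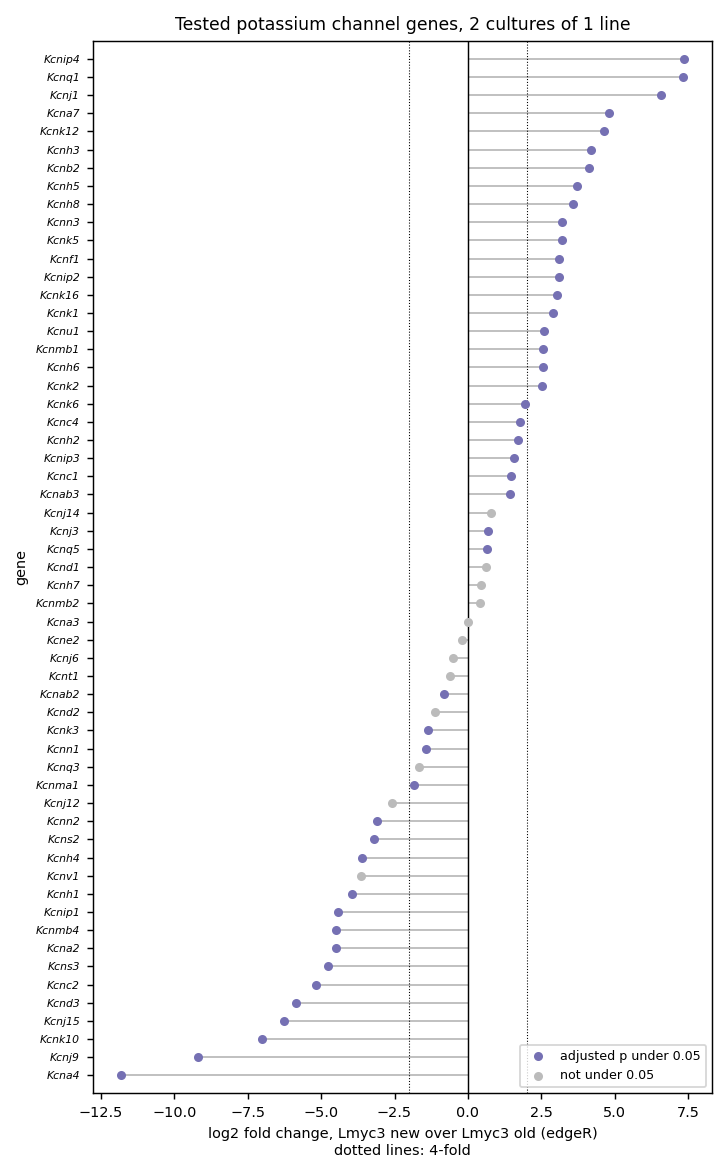
Log2 fold change of Lmyc3 new over Lmyc3 old for 57 of the 61 tested members (edgeR), colored where the adjusted p is under 0.05, with dotted lines at 4-fold. The points run from Kcnip4 at 7.37 down to Kcna4 at -11.83, a fitted value that depends on the prior count because Kcna4 had no counts in Lmyc3 new.

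The central comparison of the study set Nfib against empty vector. Below, rose and fell mean an adjusted p under 0.05 in DESeq2's Wald test with the pair of a culture as a block. That test is the most permissive of those run, and on simulated data it called more unaltered genes than its threshold allows. With Nfib, 5 channel genes rose, the M-current subunit Kcnq3, the large-conductance calcium-activated pore Kcnma1, the inward rectifier Kcnj1, the A-type pore Kcnd3 and the Kv3 pore Kcnc4. There were 3 that fell, the ERG-type pore Kcnh7, the Kv2 pore Kcnb2 and the Kv1 auxiliary subunit Kcnab2. These are 8 of the 50 members tested, or 16%, where the background was 4.06% of genes (1.86% rose and 2.2% fell). The main test, edgeR without a block, called 0 members and 0 genes, with 2 members at an unadjusted p under 0.05 and a background of 0.62%. In this test and in the same test with the block, Nfib itself was not called either, with adjusted p of 0.99998 and 0.0657. A count of 0 in these tests therefore does not show that no channel changed. EdgeR with the block also called 0 members, with 20 members at an unadjusted p under 0.05 and a background of 15.0%, and DESeq2 without the block and limma voom with it called 0 members as well, each with a background of 0.0224%. EdgeR's bias-adjusted form with the block called 1 member, Kcnd3, with a background of 0.329%. The paired DESeq2 test called 7 members with total-count scaling and 7 with the Lmyc3 cultures summed, with backgrounds of 3.9% and 3.42%.

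By class, 3 voltage-gated pores rose and 2 fell of 22 tested. Among the calcium-, sodium- or pH-activated pores 1 of 6 rose, and among the inward rectifiers 1 of 5 rose. One auxiliary subunit of 9 tested fell, and none of the 6 two-pore channels or the 2 electrically silent subunits passed. The median log2 fold change was -0.10 over the 50 members tested and -0.0062 over all genes tested, with 20 members above 0 and 30 below. Among the 47 expressed members 18, or 38.3%, moved the same way in all 4 pairs, where the background was 26.4%. No member had arms that did not overlap, where the background was 0.5%.

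Kcnq3 had 2.13, 7.55, 14.8 and 5.77 CPM in the Nfib libraries, against 0.237, 0.259, 2.60 and 1.44 CPM in the empty vector libraries of the same cultures. It was higher with Nfib in every pair, and only the Nfib library of Lmyc1 old lay within the range of the empty vector libraries. The log2 fold change was 3.03 ± 0.52 (SE, adjusted p of 2.15e-06 in DESeq2), with pair values of 2.79, 4.48, 2.48 and 1.94, and the call held whichever of the 4 pairs was left out. Kcnq3 is a subunit of the M-current, which restrains repetitive firing. Per kb of exon it stayed low, at 0.0806, 0.265, 0.592 and 0.245 CPM per kb (culture means of both libraries).

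Kcnma1, which encodes the BK pore opened jointly by voltage and calcium, had 1.70, 2.85, 24.01 and 31.4 CPM with Nfib, against 0.305, 1.63, 2.12 and 5.27 CPM with empty vector. It was higher with Nfib in every pair, most in Lmyc3 old and least in Lmyc3 new. The log2 fold change was 2.35 ± 0.45 (SE, adjusted p in DESeq2 of 3.91e-05), with pair values of 2.20, 0.77, 3.45 and 2.56, and it passed without any single pair. Kcnd3, the Kv4.3 pore, had 5.22, 0.862, 50.7 and 30.7 CPM with Nfib, against 2.13, 0.445, 25.3 and 11.2 CPM with empty vector. Its cultures spanned more than its arms, yet the ratio within pairs was even, at 1.26, 0.84, 0.997 and 1.45 on the log2 scale. Its log2 value was 1.21 ± 0.19 (SE, adjusted p in DESeq2 of 3.96e-07), it passed without any single pair, and it had the lowest adjusted p of any member in edgeR with the block, at 0.0970.

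Kcnj1 had 1.31, 68.4, 0.780 and 0.312 CPM with Nfib, against 0.169, 29.7, 0.283 and 0.135 CPM with empty vector. Outside Lmyc3 new the counts behind these values were 30, 17 and 8 with Nfib, against 5, 6 and 3 with empty vector. The log2 fold change was 1.61 ± 0.38 (SE, adjusted p in DESeq2 of 0.00200), and without the pair of Lmyc3 new the gene was not tested. Kcnc4, the Kv3.4 pore, had 41.7, 12.8, 2.02 and 6.70 CPM with Nfib, against 20.1, 3.22, 1.89 and 2.98 CPM with empty vector. The pair of Lmyc3 old was nearly level, at 0.09 on the log2 scale. Its log2 value was 1.10 ± 0.32 (SE, adjusted p in DESeq2 of 0.0212), and the call held in 1 of the 4 fits without a pair.

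Among the genes that fell, Kcnh7 had 26.2, 47.2, 29.1 and 72.9 CPM with Nfib, against 50.3, 66.3, 58.4 and 106 CPM with empty vector. It was lower with Nfib in every pair, by -0.94, -0.49, -1.005 and -0.54 on the log2 scale. The fold change was -0.75 ± 0.14 (SE, adjusted p in DESeq2 of 1.01e-05), and it passed without any single pair. The gene shares 4.6% of its exon length with Gca on the opposite strand, and without a stated strand setting their reads there cannot be told apart. Kcnb2 had 35.7, 43.0, 2.52 and 60.0 CPM with Nfib, against 50.1, 61.1, 3.45 and 72.3 CPM with empty vector. The fold change was -0.43 ± 0.11 (SE, adjusted p in DESeq2 of 0.00695), and it passed in 1 of the 4 such fits. Kcnab2 had 53.1, 28.6, 51.9 and 34.1 CPM with Nfib, against 64.4, 36.5, 60.4 and 55.8 CPM with empty vector. Its fold change of -0.40 ± 0.12 (SE, adjusted p in DESeq2 of 0.0373) passed in 0 of those fits and had an adjusted p of 0.0686 with total-count scaling.

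**Figure D4:**
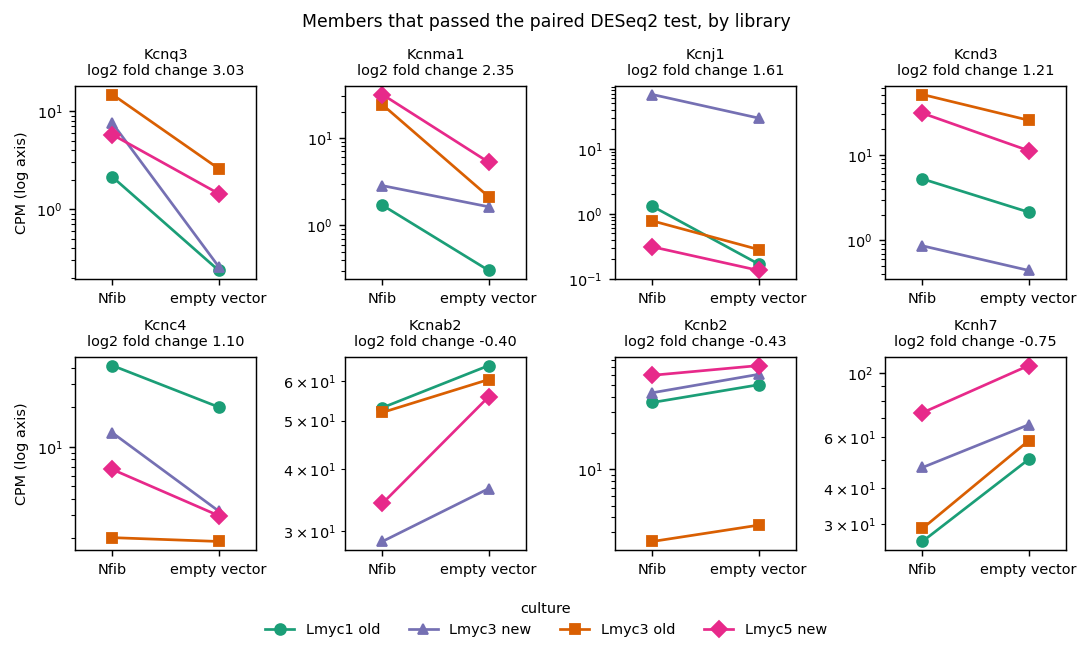
CPM (log axis) of the 8 members that passed the paired DESeq2 test, 1 panel per gene, with the Nfib library left and the empty vector library right and a line for each of the 4 cultures. All lines slope down to the right for the 5 genes that rose, though Kcnc4 in Lmyc3 old is nearly flat, and up for the 3 that fell.

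Promoter sequence is shown for the called members with a single window in the RefSeq promoter table (GRCm38.p6), because Nfib binds DNA, as part of the nuclear factor I family, at the motif TTGGC. The table held 63 of the 87 members, not Kcnq3 or Kcnb2. Each sequence is the 250 bases before the RefSeq start, 5′ to 3′ on the strand of the gene, with TTGGC or its complement GCCAA in capitals.
Kcnd3 (chr3:105451640-105451889, forward strand): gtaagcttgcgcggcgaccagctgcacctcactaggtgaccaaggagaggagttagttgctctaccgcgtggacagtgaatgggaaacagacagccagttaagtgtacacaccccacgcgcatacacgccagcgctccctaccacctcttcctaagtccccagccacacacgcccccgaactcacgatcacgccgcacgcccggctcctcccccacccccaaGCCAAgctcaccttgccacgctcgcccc
Kcnma1 (chr14:24004206-24004455, reverse strand): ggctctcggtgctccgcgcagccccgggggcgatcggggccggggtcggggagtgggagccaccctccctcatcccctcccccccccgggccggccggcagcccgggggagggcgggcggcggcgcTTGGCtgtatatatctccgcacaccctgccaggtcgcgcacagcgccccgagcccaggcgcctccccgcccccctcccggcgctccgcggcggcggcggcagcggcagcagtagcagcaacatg
Kcnj1 (chr9:32393735-32393984, forward strand): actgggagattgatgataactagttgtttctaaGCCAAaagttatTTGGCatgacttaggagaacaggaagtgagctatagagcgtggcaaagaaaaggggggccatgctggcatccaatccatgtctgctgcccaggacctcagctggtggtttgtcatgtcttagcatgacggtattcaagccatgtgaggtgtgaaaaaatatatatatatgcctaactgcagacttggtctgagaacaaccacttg
Kcnc4 (chr3:107458899-107459148, reverse strand): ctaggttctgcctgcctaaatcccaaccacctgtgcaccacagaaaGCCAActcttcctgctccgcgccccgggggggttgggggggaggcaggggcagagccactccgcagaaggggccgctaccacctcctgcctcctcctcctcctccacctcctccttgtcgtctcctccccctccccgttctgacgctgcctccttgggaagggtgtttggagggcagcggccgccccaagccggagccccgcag
Kcnh7 (chr2:63184288-63184537, reverse strand): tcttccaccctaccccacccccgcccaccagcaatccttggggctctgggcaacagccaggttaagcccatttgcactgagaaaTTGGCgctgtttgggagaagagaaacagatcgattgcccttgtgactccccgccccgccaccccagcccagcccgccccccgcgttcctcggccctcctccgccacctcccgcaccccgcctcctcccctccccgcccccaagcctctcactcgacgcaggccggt

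Each of these windows held 1 match to TTGGC on either strand, except that of Kcnj1, which held 2. The called member Kcnab2 has 3 windows and is not shown. It held 5 matches in 1 window and 0 in each of the others. A match was held by 41.5% of all 32851 windows of the same length, and by 34 of the 85 windows of members, or 40.0%. The palindrome of TTGGC and, after 5 bases of any kind, GCCAA was found in 0.0365% of all windows and in 0 windows of members. The match began 28 bases before the start in Kcnd3, 124 in Kcnma1, 204 in Kcnc4 and 166 in Kcnh7. The windows of Kcnj1 and Kcnma1 lie inside the gene's span in the count table, whose 5′ end lies farther upstream. For Kcnd3 the gene in the count table begins 440 bases downstream of the RefSeq start, so that its window lies outside the counted gene and does not adjoin it. A match describes these letters only, since no binding was measured.

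Whether the Nfib effect differed between the pairs called new and old was tested with an interaction term and the block. EdgeR called 0 members and 0 genes, with 7 of 50 members at an unadjusted p under 0.05, where the background was 3.03% of genes. DESeq2 called 1 member, the KChIP gene Kcnip1, where the background was 0.0523% of genes. Kcnip1 had 0.474 and 71.6 CPM with Nfib, against 1.001 and 100.4 CPM with empty vector, in the new cultures of Lmyc3 and Lmyc5. In the old cultures of Lmyc1 and Lmyc3 it had 0.435 and 43.5 CPM with Nfib, against 0.169 and 2.08 CPM with empty vector. The difference of effects, new minus old, was -4.13 ± 0.89 on the log2 scale (SE, adjusted p in DESeq2 of 0.0121), and the edgeR value was -4.60 with an adjusted p of 0.9997. The size rests on Lmyc3 old, since the old pair of Lmyc1 had 10 counts with Nfib and 5 counts with empty vector.

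Genes that work with these channels were listed by role. The counts of calls in them are to be read against the background given above for the same test, 1.86% of genes that rose and 2.2% that fell. Of 15 tested auxiliary partners outside the Kcn symbols, 1 rose and 0 fell. The riser was Fhl1, a LIM-domain protein that also led the list in CPM, with 124, 102, 424 and 171 CPM with Nfib, against 121, 66.9, 213 and 103 CPM with empty vector. Its log2 fold change was 0.59 ± 0.16 (SE, adjusted p in DESeq2 of 0.0136), and it passed when 1 pair was left out but not in the other 3 such fits. Of 11 tested genes of potassium transport, 0 rose and 1 fell. Atp4a, the catalytic subunit of the gastric proton-potassium pump, had 10.4, 16.2, 1.15 and 5.03 CPM with Nfib, against 22.8, 26.0, 2.22 and 11.9 CPM with empty vector, a fold change of -1.01 ± 0.20 (adjusted p of 6.03e-05) that passed without any single pair. Of 7 tested other channels that pass potassium, 0 were called, and the most abundant was the pacemaker channel Hcn4, at 53.8 ± 34.7 CPM with Nfib and 75.2 ± 37.8 CPM with empty vector (SD, n = 4 each, adjusted p of 0.106).

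Markers of other cell types were low but not all at 0. Of the leukocyte markers, Cd68, a lysosomal protein of macrophages, was at 1.22 to 2.30 CPM in all 8 libraries, and Ptprc, Csf1r and Lyz2 were at no more than 0.802 CPM in any. Of the fibroblast markers, Pdgfra, a growth factor receptor, had 0.784, 0.259, 2.57 and 12.1 CPM with Nfib, against 0.407, 0.148, 10.3 and 6.85 CPM with empty vector, and Col1a1, Col1a2, Col3a1 and Dcn were at no more than 0.222 CPM in any library. The endothelial gene Kdr had 6.47 and 5.74 CPM with Nfib, against 0.0371 and 0.0944 CPM with empty vector, in Lmyc3 new and Lmyc3 old, while the endothelial gene Cdh5 was at no more than 0.0451 CPM in any library. Pecam1 and Tek, also on that list, had 0.184 and 0.230 CPM with Nfib in Lmyc3 old, against 0.425 and 1.37 CPM with empty vector. In Lmyc3 new they had 0.259 and 0.0862 CPM with Nfib, against 0 and 0.111 CPM with empty vector. Summed over the endothelial list of 4 genes the Nfib libraries held 0.392 to 6.81 CPM, against 0.148 to 1.89 CPM in the empty vector libraries. The highest Nfib sum was mostly Kdr. The part of other cell types in the channel results was not tested. Among the 10 neuroendocrine markers 1 fell, Nkx2-1, where the background was 2.2% of genes. Its log2 fold change was -0.39 ± 0.11 (SE, adjusted p in DESeq2 of 0.0122), and the call held in 2 of the 4 fits without a pair. The list summed to 2161 to 4587 CPM with Nfib, against 3062 to 4946 CPM with empty vector.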

How the data were processed

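RNA-seq came from 8 libraries, 4 Nfib and 4 empty vector, prepared by Illumina's TruSeq protocol for RNA, per the labels. The authors deposited 1 table of unnormalized read counts, with a row for each Ensembl gene. TopHat2 2.1, Bowtie 1.0.0, SAMtools 0.1.19 and DESeq2 with the mouse build GRCm38 (mm10) are named, per the submitters' processing notes. How reads were counted, with which strand setting and annotation release, is not given in the sources used here, so overlapping and antisense genes cannot be told apart. Group and replicate number came from titles and sources, line and old or new from descriptions. Arms followed the stated vector. A further allele of the genotype and some genes that the naming rule or the figures would include are not reported here, though counts cover them.

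CPM used TMM-scaled library sizes, and within-pair log2 ratios used log2 CPM with a prior count of 2. CPM per kb divided by the union of exons in GENCODE M21, which held all 87 members. The 4 non-coding Kcn rows were left out. Depth limits used total counts.

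The main test of Nfib was edgeR's quasi-likelihood test without a block (edgeR 4.0.16, R 4.3.3, TMM, expression filter by group, 13380 genes and 50 members kept, of which 46 expressed and 4 silent, Benjamini-Hochberg adjustment over all genes at 0.05). Of the 47 expressed members Kcna2 did not pass the filter. Cultures were compared by edgeR with a term for Nfib (filter by replicate, 14385 genes and 61 members kept). Alternatives were the replicate block, edgeR's bias-adjusted form, DESeq2 1.42.0, limma 3.58.1 (voom), other scalings and filters, the Lmyc3 cultures summed, and each replicate or library left out. The words rose and fell follow DESeq2 with the replicate block, an alternative. It left 260 adjusted p-values undefined, which count as not passing. Fits were tested on simulated data, where the paired DESeq2 test called more unaltered genes than its threshold allows. The replicate number marks a shared culture in the labels, and the pairing was checked by correlating deviations from group means. For libraries of 1 number r was 0.908, 0.884, 0.935 and 0.929, and for all others it was at most 0.0647.

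Named genes were Nfib, members called for Nfib in the paired or unpaired tests, the 10 members of highest mean CPM per kb and the highest of each class, culture-specific members, members of at least 4-fold difference in the Lmyc3 contrast, and called or most abundant genes of 3 partner lists. Genes outside this rule are named as examples chosen after their values were seen. The members, lists and tests were chosen with earlier results of these data known. The 2 red cell markers listed had no row in the table. Marker lists for alveolar and airway cells and for muscle summed to at most 12.7 and 22.7 CPM in any library, and those for leukocytes and fibroblasts to at most 2.49 and 12.4 CPM.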

Additional observations from a re-analysis of the deposited data

Results flagged for a closer look

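Among the 4 libraries of an arm, 1 library stood apart from the other 3 by a gap larger than Dixon's critical value in 7 of the 40 groups examined. The groups come from 20 named members, and chance flags about 1 in 20 groups of genes not chosen by their values. The naming rule took in the culture-specific members Kcnip4, Kcnj1 and Kcnv1, which were chosen for such gaps. The number of flags therefore cannot be set against chance. Kcnip4 stood apart in Lmyc3 new in both arms, at 230.5 CPM with Nfib and 281 CPM with empty vector. Kcnj1 did so in the same culture, at 68.4 CPM with Nfib and 29.7 CPM with empty vector. Kcnv1 stood apart in the empty vector library of Lmyc5 new, at 23.2 CPM. Kcnc4 did so in the empty vector library of Lmyc1 old, at 20.1 CPM, and Kcnip3 was low in the Nfib library of Lmyc3 old, at 28.6 CPM. The libraries of an arm are different cultures, so these values describe cultures.

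The Nfib effect on Kcnip1 differed between new and old pairs by -4.13 on the log2 scale in the DESeq2 interaction test with the block, while edgeR's test of the same term did not pass.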

How the results depend on the processing

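The main count of members called for Nfib, 0 in edgeR without the block, stayed at 0 with the block, with DESeq2 size factors, without a low-count filter and with any replicate left out, and in DESeq2 without the block and limma voom with it. With the replicate block it became 1 (Kcnd3) in edgeR's bias-adjusted form and 8 in DESeq2. In that DESeq2 test it was 7 with total-count scaling, which shifted the median of all genes by 0.035 on the log2 scale, 7 with the Lmyc3 cultures summed per arm, and 7, 7, 4 and 6 without replicates 1, 2, 3 and 4. Calls gained there were Kcnh2, Kcnip2 and Kcnn3. EdgeR without and with the block did not call Nfib itself either, so their counts of 0 do not show that no channel changed. The interaction count was 0 in edgeR and 1 in DESeq2, both with the replicate block. Culture-specific members numbered 3 at 4-fold, 7 at 2-fold and 9 over empty vector libraries alone, where each culture has 1 library. Only the 4-fold count over all libraries has a background. Counts of expressed members (42 to 55), of members differing between cultures (45 to 63) and of members called in the Lmyc3 contrast (37 to 53) kept within 1.5 times of 47, 57 and 48. Leaving out a library of Lmyc3 leaves a lone sample that is assumed to vary like the others. No result changed direction. Members under about 0.1 CPM lie at the limit of this depth.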
